A study of Drosophila melanogaster with 8 samples.

Results

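Ovaries of piwi mutant flies were compared with ovaries of a control strain by sequencing their RNA, in 4 of the 8 libraries of the series, with 2 libraries in each group. Libraries were assigned to the groups by their titles. The mutant flies carried the alleles piwi1 and piwi2 over each other (piwi1/piwi2). The control flies carried nos-GAL4-VP16, a transgene that drives expression in the germline, and their labels name no piwi allele. Both groups were Drosophila melanogaster aged 4 to 6 days. The mutant labels name no driver transgene, so the piwi alleles and any other difference between the strains cannot be told apart. The other 4 libraries, from flies of the same age, were an RnpS1 knockdown and its control. The knockdown flies carried dsRNA-RnpS1 over tj-GAL4, a driver of somatic ovary cells, together with shRNA-RnpS1 over nos-GAL4-VP16, and their control carried tj-GAL4 and nos-GAL4-VP16 alone. These libraries shared the fit and served to test whether a change differed from that in the knockdown. Whether the libraries of a group were made from different animals is not stated in the labels. The p-values then describe the variation among these libraries alone, which may be technical.

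Piwi is an Argonaute protein that binds small RNAs of the ovary, the piRNAs, and is guided by them to nascent transposon transcripts in the nucleus. There it recruits factors that lay down repressive chromatin, in germline cells and in the follicle cells that surround them. Females without Piwi are known to lose germline stem cells and to form abnormal ovaries. Many Drosophila transposons are retrotransposons, which move through an RNA copy, so that loss of silencing can be read from their transcripts. Retrotransposons with long terminal repeats (LTR) include the gypsy group, some members of which carry an envelope gene and are active in follicle cells. Those without such repeats include jockey-like elements and HeT-A and TAHRE, which maintain chromosome ends in the fly. DNA transposons move without an RNA copy.

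Gene counts summed to 46683566 and 50940588 in the mutant libraries and to 37426999 and 47294459 in the control libraries. Levels are given for each library as counts for every 1000000 gene counts (CPM). Changes are log2 fold changes of mutant over control, each with a standard error (SE). The p-values are from edgeR's quasi-likelihood test, adjusted by the Benjamini-Hochberg method, with a threshold of 0.05. Transcripts of piwi (FBgn0004872) were at 202 and 193 CPM in the mutant, against 316 and 312 CPM in the control (log2 fold change −0.83, SE 0.135, adjusted p = 0.0197), a call that was lost when any 1 of the 4 libraries was left out. The mutant mean was 62.9% of the control mean, and the counts do not show whether the transcript encodes a working protein. The white gene w (FBgn0003996), an eye pigment transporter gene that many transgenes carry as a marker, was at 7.005 and 4.12 CPM in the mutant and 299 and 266 CPM in the control (log2 fold change −5.83, adjusted p = 0.00247). It was at 208 and 338 CPM in the RnpS1 knockdown and 11.1 and 12.8 CPM in its control. The labelled tissue was checked with oocyte transcripts, and osk, which directs germ plasm assembly, was at 1348 and 1430.2 CPM in the mutant and 2153 and 1916 CPM in the control.

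Transposon transcripts made up a far larger part of the mutant libraries. For every 100 gene counts there were 12.1 and 10.7 transposon counts in the mutant libraries, against 0.880 and 0.574 in the control, or 11.4 ± 0.982 and 0.727 ± 0.216 (SD, n = 2 each). The mutant mean was 15.7 times the control mean, and with 1 library left out at a time this ratio lay between 13.0 and 19.9. With 2 libraries against 2 an exact permutation test cannot go below 0.333, so this ratio carries no p-value. Of the 123 families 77 passed the test (62.6%), of which 75 rose (61%) and 2 fell (1.63%), and 46 did not pass. Both mutant libraries lay above both control libraries in 110 families and below both in 2, and in 11 the groups overlapped. The control libraries were themselves unequal. Control library 1 exceeded control library 2 in 121 of the 123 families. The median distance between the control libraries over all families was 1.66-fold, and that between the mutant libraries 1.10-fold.

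A few families held most of the transposon counts of the mutant. In the mutant libraries 4 and 4 families held 50% of all transposon counts, against 16 and 15 families in the control libraries, and 24 and 26 families held 90%, against 66 and 64 in the control libraries. The LTR element copia alone took 27.5% of them in the mutant, where it ranked 1, against 3.33% in the control, where it ranked 5. The share of mdg3 was 11.3% in the mutant and 0.732% in the control, with rank 2 in the mutant and rank 37 in the control. The reverse held for roo, the family with the largest share in the control, at 0.813% of the mutant and 10.5% of the control counts. Its level was 926 and 924 CPM in the mutant and 828 and 668 CPM in the control, and the difference did not pass. Shares of gypsy were alike, at 4.29% in the mutant and 4.15% in the control, although its level rose.

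**Figure D1:**
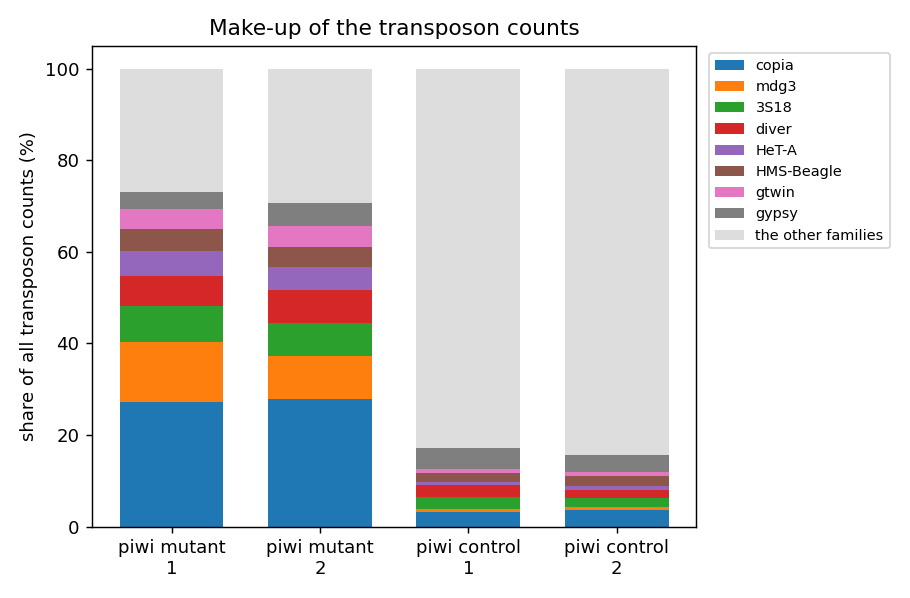
Share of all transposon counts (%, vertical axis) held by the 8 families with the largest share in the mutant, stacked for each of the 4 libraries, with the other families in grey. The copia segment, 27.5% on average, is the tallest of the 8 in the mutant bars, and at 3.33% a thin band in the control bars.

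The widest separation between the groups was that of mdg3, an LTR element of the gypsy superfamily. It was at 15805 and 10153 CPM in the mutant libraries, against 72.3 and 36.9 CPM in the control libraries, and the fitted change was 213-fold (log2 7.73, SE 0.481, adjusted p = 2.2e-05). The related element micropia was at 292 and 301 CPM in the mutant and 34.7 and 16.2 CPM in the control. Both rose, and no library of a group came near those of the other. Counts of copia were at 32941 and 29845 CPM in the mutant and 274 and 204 CPM in the control (log2 fold change 6.88, SE 0.530). The other 2 families placed with copia in the grouping used here did not follow it. The element 1731 was at 332 and 287 CPM in the mutant and 243 and 189 CPM in the control (adjusted p = 0.242), and frogger at 11.01 and 9.698 CPM in the mutant and 18.4 and 8.97 CPM in the control (adjusted p = 0.339).

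In the gypsy lineage 28 of 33 families rose (84.8%, against 61% of all families) and none fell. The median log2 fold change was 2.43, against 1.22 over all families. The follicle-cell element gtwin was at 5261 and 4941 CPM in the mutant and 79.4 and 43.3 CPM in the control (log2 fold change 6.22, SE 0.359). Transcripts of ZAM, also known for expression in follicle cells, were at 1358 and 1511 CPM in the mutant and 58.4 and 56.8 CPM in the control (log2 fold change 4.48, SE 0.208). These 2 families differed in how even their control libraries were, with ZAM almost equal in both. The element gypsy itself, whose envelope protein can make infectious particles, was at 4466 and 5253 CPM in the mutant and 406 and 211 CPM in the control (log2 fold change 3.82, adjusted p = 0.000196). Burdock, known for expression in the germline, was at 1429 and 1357 CPM in the mutant and 24.05 and 13.2 CPM in the control (log2 fold change 6.07). The element gypsy5 was at 872 and 1083 CPM in the mutant and 14.5 and 8.204 CPM in the control (log2 fold change 6.27). For each of the families from gtwin to gypsy5 the lower mutant library was at least 10 times the higher control library.

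Further members of the gypsy lineage rose. Transpac stood at 1667 and 1331 CPM in the mutant and 36.98 and 35.8 CPM in the control, and HMS-Beagle at 5831 and 4719 CPM in the mutant and 171 and 127 CPM in the control. For springer the values were 714 and 796 CPM in the mutant and 28.99 and 20.04 CPM in the control, and for Quasimodo 588 and 573 CPM in the mutant and 37.9 and 22.6 CPM in the control. HMS-Beagle2 was at 936 and 918 CPM in the mutant and 71.5 and 59.1 CPM in the control (log2 fold change 3.67, SE 0.142). The element accord was at 206 and 199 CPM in the mutant and 17.2 and 11.02 CPM in the control. All 6 rose, by log2 values between 3.67 and 5.21. Tirant, an envelope-bearing element, also rose (log2 fold change 3.71, adjusted p = 0.0196), with levels of 60.1 and 34.4 CPM in the mutant and 4.52 and 1.99 CPM in the control. The 5 members that did not pass were gypsy3, gypsy9, gypsy10, gypsy11 and Tom1, with log2 fold changes between −0.18 and 0.61.

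Among the BEL and Pao elements 4 of 7 families rose (57.1%), which is near the 61% of all families. The element 3S18 was at 9665 and 7767 CPM in the mutant and 228 and 122 CPM in the control (log2 fold change 5.48, SE 0.421), and diver at 7736 and 7649.6 CPM in the mutant and 226 and 99.5 CPM in the control (log2 fold change 5.40, SE 0.430). Max-element and aurora-element rose by log2 values of 3.30 and 1.47. The element roo and its relatives stood apart from them, with log2 fold changes of 0.15 for roo (adjusted p = 0.398) and 0.46 for rooA (adjusted p = 0.0981). In the mdg1 and 412 lineage 6 of 7 families rose (85.7%). The element 412 was at 1698 and 1769 CPM in the mutant and 206 and 162 CPM in the control, mdg1 at 1558 and 1638 CPM in the mutant and 201 and 149 CPM in the control, and blood at 2607 and 2418 CPM in the mutant and 327 and 201 CPM in the control. Their log2 fold changes lay between 3.03 and 3.09, and the groups were well apart in each. Of the 10 other LTR families 8 rose (80%), with invader3 (log2 fold change 5.27), invader4 (4.55) and GATE (4.31) at the top. The values were 1052 and 768 CPM in the mutant and 28.3 and 13.9 CPM in the control for invader3, and 1972 and 1699 CPM in the mutant and 106 and 59.9 CPM in the control for GATE. For invader4 they were 473 and 426 CPM in the mutant and 23.7 and 10.8 CPM in the control.

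Both telomeric elements found among the 123 families rose. Their median log2 fold change was 5.49, against 0.61 in the jockey clade and 1.07 in the R1, R2 and I group. HeT-A, whose transcripts template the repeats at chromosome ends, was at 6860.0 and 5344 CPM in the mutant and 59.4 and 49.4 CPM in the control (log2 fold change 6.65, SE 0.491, adjusted p = 3.6e-05). TAHRE was at 949.8 and 722 CPM in the mutant and 44.1 and 30.5 CPM in the control (log2 fold change 4.33, SE 0.301). In the jockey clade 7 of 21 families rose (33.3%, against 61% of all families). Juan rose, at 117 and 88.4 CPM in the mutant and 17.3 and 10.99 CPM in the control (log2 fold change 2.70), as did F-element, at 497 and 552 CPM in the mutant and 199 and 106 CPM in the control (log2 fold change 1.62). Doc had overlapping groups, with 352 and 345 CPM in the mutant and 365 and 265 CPM in the control (log2 fold change −0.01, SE 0.330). The jockey element itself was at 189 and 180.1 CPM in the mutant and 125 and 90.9 CPM in the control, with separate groups and an adjusted p of 0.0511. Of the 10 R1, R2, I and related families 5 rose (50%). R2-element, which inserts into the genes for ribosomal RNA, was at 530.1 and 532 CPM in the mutant and 58.8 and 32.1 CPM in the control (log2 fold change 3.39, adjusted p = 0.0126). In the RnpS1 control R2-element was at 652 and 369 CPM, a range that holds both mutant values. I-element was at 94.4 and 91.5 CPM in the mutant and 60.2 and 27.2 CPM in the control (adjusted p = 0.0659).

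Both families that fell were DNA transposons. In the Tc1-mariner group 6 of 10 families rose (60%), which is near the 61% of all families. Bari1 was at 55.8 and 55.1 CPM in the mutant and 5.504 and 2.88 CPM in the control (log2 fold change 3.57). Of the 4 transib families 3 rose (75%), with transib1 at 22.4 and 38.4 CPM in the mutant and 2.08 and 1.52 CPM in the control (log2 fold change 3.92). P-element, 1360 and hobo rose by log2 values of 3.08, 0.81 and 0.89. The element hopper fell, at 78.6 and 42.6 CPM in the mutant and 164 and 131 CPM in the control (log2 fold change −1.45, SE 0.292, adjusted p = 0.00427). It stood at 22.9 and 17.5 CPM in the RnpS1 control, below both mutant libraries. NOF, a sequence found within some foldback elements, was at 14.1 and 14.5 CPM in the mutant and 56 and 24.5 CPM in the control (log2 fold change −1.65, adjusted p = 0.0251), a call kept in 1 of the 4 fits without a library. The foldback element FB had overlapping groups, at 23.2 and 20.8 CPM in the mutant and 27.3 and 18.5 CPM in the control.

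All these directions are relative to gene counts. When scaling factors were taken from the families themselves, 41 families were higher and 48 lower and the median over all families was −0.29. The medians of the jockey clade, the R1, R2 and I group, the Tc1-mariner group, the transib group, the copia-like group and the BEL and Pao group were then negative, while those of the gypsy lineage (1.02), the mdg1 and 412 lineage (0.81), the other LTR families (0.75) and the telomeric elements (3.91) were positive. The deposited counts do not show which copies of a family were transcribed or from which strand, and families with related sequences may share reads.

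**Figure D2:**
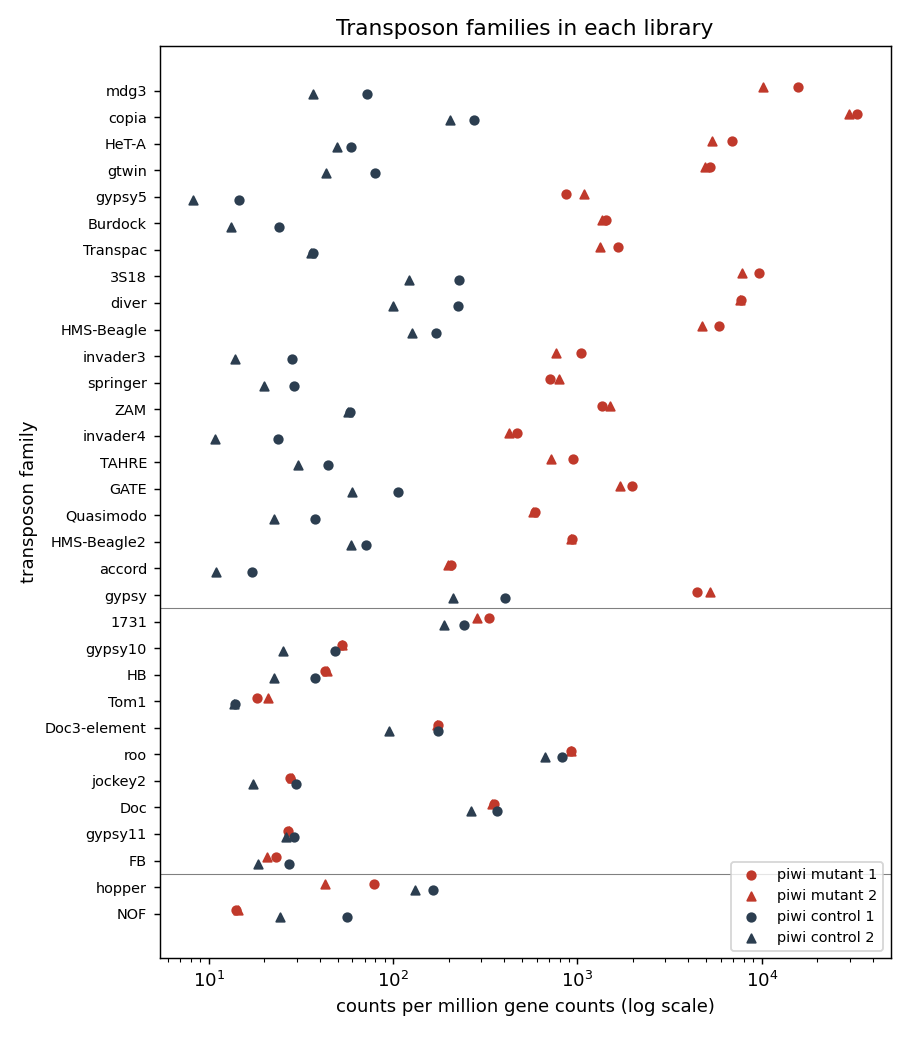
Level of 32 transposon families (CPM, log axis) in each mutant library (red) and control library (dark), with replicate 1 as circles and replicate 2 as triangles. The upper block holds the 20 families with the widest gap between the groups, the middle block the 10 nearest to no change, and the lower block hopper and NOF, the families that fell.

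The rise of many families was larger than their change in the RnpS1 knockdown. The difference between the 2 changes passed the test in 47 families (38.2%), of which 46 rose in the piwi mutant and had the more positive change there, and hopper had the more negative one. ZAM changed by 4.48 in the mutant and −0.10 in the knockdown, a difference of 4.58 (SE 0.267, adjusted p = 7.1e-05). For gypsy the changes were 3.82 in the mutant and −0.24 in the knockdown (difference 4.05, adjusted p = 0.00158), and for TAHRE 4.33 in the mutant and 0.13 in the knockdown (difference 4.19, adjusted p = 0.000275). For these 3 families the knockdown values were near 0. The difference did not pass for 29 of the families that rose. Among these were 412, with 3.08 in the mutant and 3.87 in the knockdown (adjusted p = 0.242), P-element, with 3.08 in the mutant and 3.40 in the knockdown, and GATE, with 4.31 in the mutant and 3.58 in the knockdown. Tirant had 3.71 in the mutant and 5.15 in the knockdown, a difference of −1.44 (SE 1.39).

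Of 10434 genes tested 1147 passed (11%), with 648 higher in the mutant (6.21%) and 499 lower (4.78%). The higher genes changed by more, with 590 of them 2-fold or more, against 101 of the lower genes. With library totals as the only scaling the split was 803 higher and 197 lower, and the median of all genes moved to 0.17 on the log2 scale, against 0.01. The calls also depended on the number of libraries. Without mutant library 1 or 2, 37 or 44 genes were higher, and without control library 1 or 2, 118 or 19 were. The genes lower numbered 7, 29, 73 and 8 in the same order. Of 106 named genes with a call, 5 kept it whichever of the 4 libraries was left out, namely w, hbt, GstE10, jtb and Sodh2, and 83 lost it each time.

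The share of genes that passed differed with the mean level over the 4 libraries. In the class from 1 to 10 CPM, 289 of 1566 genes rose (18.5%) and 30 fell (1.92%). At 100 CPM or more, 265 of 2533 genes fell and 32 rose, but with library totals alone 73 fell and 64 rose, so that the excess of falls at high levels depends on the scaling. Among the genes that rose 57 had no count in either control library. Of the 107 genes at 1000 CPM or more, 8 fell and 1 rose, the small nuclear RNA gene snRNA:7SKa. Transcripts of snRNA:7SKa, a regulator of transcription elongation, were at 1989 and 1856 CPM in the mutant and 1025 and 1036 CPM in the control. In the RnpS1 control they were at 1722 and 1427 CPM. The germline transcript BicC, a translational regulator, was at 877 and 914 CPM in the mutant and 1728 and 1823 CPM in the control (log2 fold change −1.15, adjusted p = 0.0118). Dcr-2, the Dicer of the siRNA pathway, had unequal controls, at 269.6 and 345 CPM in the mutant and 3182 and 834 CPM in the control (adjusted p = 0.0280), and it was at 263 and 245 CPM in the RnpS1 control. These 3 genes were chosen after their values were seen.

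**Figure D3:**
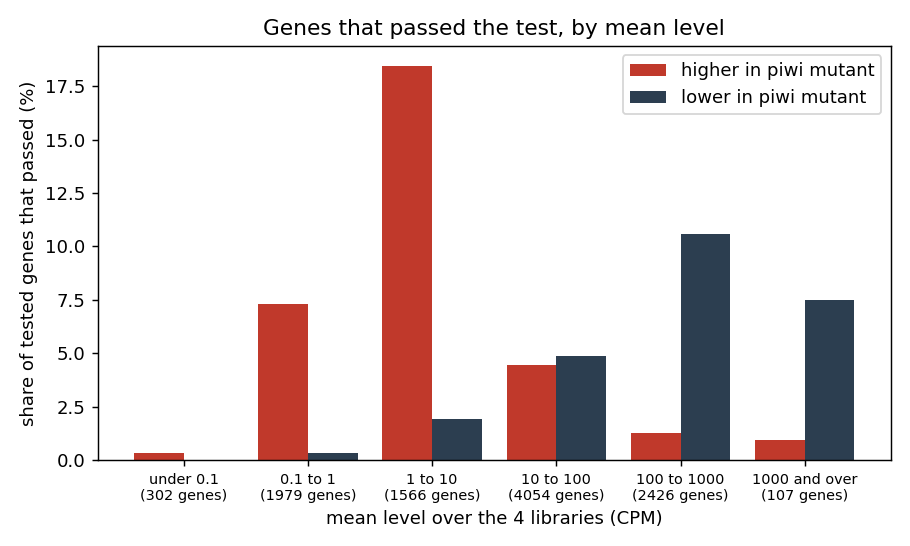
Share of tested genes that passed the test (%, vertical axis) as higher (red) or lower (dark) in the mutant, for classes of mean level over the 4 libraries (CPM, horizontal axis). The tallest bar for rises is that of the class from 1 to 10 CPM, at 18.5%, and the bars for falls are taller than those for rises above 100 CPM.

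By chromosome, 15 of the 83 tested genes on chromosome 4 rose (18.1%), against 4.45% higher on X and 5.41% to 7.86% on the large autosome arms. Falls on chromosome 4 numbered 6 (7.23%, against 4.78% of all genes). The strongest rise there was that of Cadps, a gene for release of dense-core vesicles, at 50.2 and 45.5 CPM in the mutant and 2.97 and 1.29 CPM in the control (log2 fold change 4.33, adjusted p = 0.00747). Rnf11, a RING-domain gene, was at 86.8 and 90.03 CPM in the mutant and 20.5 and 24.9 CPM in the control, and PlexB, a semaphorin receptor gene, fell, at 58.6 and 57.8 CPM in the mutant and 101 and 115 CPM in the control. Of 169 snoRNA genes 9 rose (5.33%), which is below the 6.21% of all genes that rose. Of 23 snRNA genes 3 rose (13.0%), among them snRNA:U11 and snRNA:U12 of the minor spliceosome. For snRNA:U12 the levels were 158 and 154 CPM in the mutant, 55.4 and 61.4 CPM in the piwi control and 112 and 137 CPM in the RnpS1 control. Those of snRNA:U11 were 211 and 237 CPM in the mutant, 61.3 and 90.1 CPM in the piwi control and 178 and 121 CPM in the RnpS1 control. These genes too were chosen after their values were seen.

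The genes with the widest gap above the control encoded receptors, binding proteins and metal-binding proteins that were nearly silent in control ovaries. Obp49a, an odorant-binding protein gene, had 27.03 and 28.1 CPM in the mutant and 0.0267 and 0.0211 CPM in the piwi control, which is 2691 counts against 2 (ratio 1168, 95% interval 323 to 9647). It also rose in the RnpS1 knockdown, at 7.12 and 28.3 CPM, against 0.479 and 1.13 CPM in the control of that knockdown (log2 fold change 4.36). The difference between its 2 changes did not pass (adjusted p = 0.122). The receptor gene mthl8 had 21.3 and 18.1 CPM in the mutant and 0.0267 and 0 CPM in the control (ratio of counts 1664, 95% interval 298 to 65778). The gustatory receptor gene Gr98b had 5.31 and 7.11 CPM in the mutant and was without counts in both control libraries. With a floor of 3 counts over the control group it was at least 176-fold higher. The leucokinin receptor gene Lkr had 13.7 and 17.9 CPM in the mutant and 0.0267 and 0.0211 CPM in the control (ratio of counts 674, 95% interval 186 to 5573). In each of these 4 genes both mutant libraries were alike and the piwi control libraries held 2 counts or fewer in all.

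Further genes with wide gaps rose. The gene hbt had 22.2 and 19.5 CPM in the mutant and 0.0534 and 0 CPM in the control (ratio of counts 880, 95% interval 243 to 7271, adjusted p = 0.00652), and jtb had 27.2 and 25.1 CPM in the mutant and 0.401 and 0.190 CPM in the control (log2 fold change 6.32, SE 0.496, adjusted p = 0.00400). Tom, a Bearded-family gene of Notch signalling, had 21.6 and 16.9 CPM in the mutant and 0.267 and 0 CPM in the control. The acetylcholine receptor subunit gene nAChRbeta3 had 8.08 and 10.9 CPM in the mutant and 0.160 and 0.127 CPM in the control. The cadherin gene CadN2 had 6.21 and 6.05 CPM in the mutant and 0.134 and 0 CPM in the control. Each of these 5 rose with mutant libraries that differed by little. The gene fit, which the fat body expresses, had unequal mutant libraries, at 22.96 and 44.6 CPM in the mutant and 0.187 and 0.359 CPM in the control (log2 fold change 6.77). For sordd2 and GstE10 the RnpS1 control was itself high. The gene sordd2 had 45.5 and 38.4 CPM in the mutant, 0.828 and 0.867 CPM in the piwi control and 12.5 and 21.9 CPM in the RnpS1 control. GstE10, a glutathione transferase gene, had 41.9 and 17.8 CPM in the mutant, 0.0802 and 0.0211 CPM in the piwi control and 19.1 and 25.5 CPM in the RnpS1 control.

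Genes with the widest gap below the control included 4 eggshell genes, described with their families further on, and metabolic genes. The gene sosie had 0 and 0.275 CPM in the mutant and 31.6 and 23.7 CPM in the control (log2 fold change −7.76, SE 1.44). Sodh2, a sorbitol dehydrogenase gene, had 3.02 and 2.51 CPM in the mutant and 23.8 and 23.4 CPM in the control (log2 fold change −3.25, SE 0.265, adjusted p = 0.00400). The glutathione transferase gene GstE1 had 7.05 and 5.95 CPM in the mutant and 48.8 and 51.3 CPM in the control, opposite in direction to GstE10. The sulfotransferase gene St4 had 1.31 and 1.71 CPM in the mutant and 24.4 and 12.8 CPM in the control, and Cyp4s3, a cytochrome P450 gene, 4.88 and 9.501 CPM in the mutant and 46.8 and 39.03 CPM in the control. Of these, Sodh2 and GstE1 had the most even libraries within each group. The ionotropic receptor gene Ir7c had 1.31 and 2.73 CPM in the mutant and 44.6 and 23.1 CPM in the control. Jhbp5, of the juvenile hormone binding protein family, had 10.8 and 27.7 CPM in the mutant and 200.2 and 101 CPM in the control, and drd (drop dead) had 3.56 and 5.93 CPM in the mutant and 48.6 and 25.5 CPM in the control. In these 3 genes control library 1 was well above control library 2.

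In 2 further genes that fell the 2 controls of the series differed. The meiotic gene narya had 1.52 and 1.88 CPM in the mutant and 28.2 and 32.9 CPM in the piwi control. It had 2.53 and 0.969 CPM after RnpS1 knockdown, against 0.346 and 0.289 CPM in the control of that knockdown. Dhc98D, a dynein heavy chain gene, had 0.600 and 0.942 CPM in the mutant and 6.36 and 7.06 CPM in the piwi control. Its levels were 23.1 and 30.1 CPM after RnpS1 knockdown, against 0.439 and 0.330 CPM in the control of that knockdown. In both, the RnpS1 control lay below the mutant. Together with w, they differed between the mutant and the knockdown change, at −6.65 for narya (adjusted p = 0.0165) and −9.26 for Dhc98D (adjusted p = 0.00195). Over all genes that difference passed in 67 (0.642%), 38 with the more positive and 29 with the more negative change in the mutant. The photolyase gene phr6-4, chosen after its values were seen, had the smallest p among them. It was at 101 and 82.7 CPM in the mutant, 11.4 and 11.1 CPM in the piwi control and 120.4 and 133 CPM in the RnpS1 control (log2 fold change 2.87 in the mutant and −1.13 in the knockdown).

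**Figure D4:**
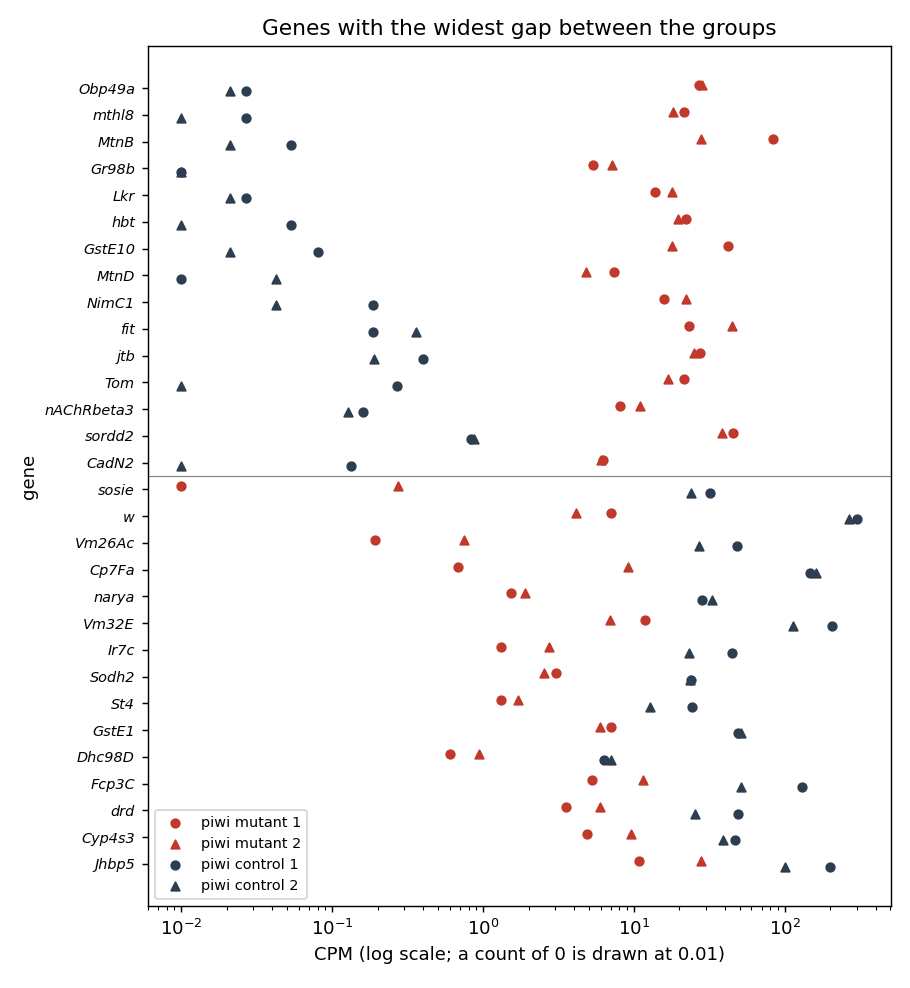
Level (CPM, log axis) of the 15 higher and the 15 lower genes with the widest gap between the groups, in each mutant library (red) and control library (dark), with replicate 1 as circles and replicate 2 as triangles. Counts of 0 are drawn at 0.01. Upper genes sit below 1 CPM in every control library, and lower genes sit above 5 CPM there.

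Eggshell genes, products of follicle cells in the last stages of egg formation, had lower values in the mutant in every tested member. Both mutant libraries lay below both control libraries in all 23, and 4 fell, while the others did not pass. The share of all genes with groups apart in this way was not counted. The vitelline membrane forms the inner eggshell layer. Of its 9 genes 3 fell (33.3%, against 4.78% of all genes), with a median log2 fold change of −2.89. Vm26Ac was at 0.193 and 0.746 CPM in the mutant and 48.4 and 26.9 CPM in the control (log2 fold change −6.46, SE 1.004, adjusted p = 0.0175). Vm32E was at 11.8 and 6.97 CPM in the mutant and 204.6 and 113 CPM in the control, and Fcp3C at 5.25 and 11.4 CPM in the mutant and 129 and 50.8 CPM in the control. Vm26Aa was at 65.6 and 52.1 CPM in the mutant and 313 and 115 CPM in the control (adjusted p = 0.198), so that control library 2 was closer to the mutant than to control library 1.

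The chorion is the outer eggshell layer, and its genes separated the mutant libraries from each other. Of 14 tested genes Cp7Fa fell (7.14%, against 4.78% of all genes). It was at 0.685 and 9.19 CPM in the mutant and 147 and 160.1 CPM in the control (log2 fold change −5.11, SE 1.13). The major chorion gene Cp36 was at 4.61 and 359.7 CPM in the mutant and 2770.1 and 2049 CPM in the control (adjusted p = 0.157), and Cp15 at 9.98 and 187 CPM in the mutant and 1297 and 1404 CPM in the control. Summed over the 15 listed genes the levels were 658 and 2130.3 CPM in the mutant, against 12051 and 9063 CPM in the control. The median log2 CPM was 0.20 and 5.57 in the mutant, against 8.62 and 8.23 in the control. Mutant library 2 was higher than library 1 in 19 of the 23 eggshell genes, and the mutant libraries were over 4-fold apart in 14. Without mutant library 1, control library 1 or control library 2 no chorion gene passed, and without mutant library 2 as many as 9 did. In whole ovaries fewer cells of a type and less RNA per cell cannot be told apart.

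Among the listed genes of the germline and oocyte 25% passed, against 11% of all genes. Of 16 tested 1 rose and 3 fell, against 6.21% and 4.78% of all genes, with a median of −0.24 (−0.08 with library totals alone). BicC, which also fell, is not in this list. The gene bam, which starts the differentiation of germline cysts, rose, at 158 and 152 CPM in the mutant and 48.5 and 73.98 CPM in the control (log2 fold change 1.19, adjusted p = 0.0449). Besides osk (log2 fold change −0.71), the RNA transport gene egl fell (log2 fold change −0.59) and so did bcd, the anterior determinant (log2 fold change −0.58). In these the groups did not overlap, and 1 of the 3 falls remained past the threshold with library totals alone. Of 15 follicle cell regulators, the Notch target E(spl)m7-HLH rose and the receptor gene N fell, which is 6.67% each way, near the shares of all genes. Levels of N were 341 and 382 CPM in the mutant and 544 and 545 CPM in the control.

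Metal-binding and detoxifying genes were among those that rose. Of 11 tested metallothionein and metal response genes 5 rose and none fell, with a median of 1.12, against 6.21% higher and a median of 0.01 over all genes. MtnB had 83.2 and 27.8 CPM in the mutant and 0.0534 and 0.0211 CPM in the control (ratio of counts 1534, 95% interval 525 to 7441). MtnD had 7.35 and 4.83 CPM in the mutant and 0 and 0.0423 CPM in the control. MtnA, a copper-binding protein gene, had 155 and 153 CPM in the mutant and 18.5 and 19.1 CPM in the control (log2 fold change 2.87, adjusted p = 0.0399). MtnE rose too, as did Fer2LCH, a ferritin subunit gene, at 559 and 489 CPM in the mutant and 235 and 195 CPM in the control. The metal sensor gene MTF-1 was at 58.4 and 58.4 CPM in the mutant and 61.3 and 54.6 CPM in the control.

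Of the 43 tested cytochrome P450 genes in the list, which encode oxidising enzymes for toxins and hormones, 15 rose (34.9%) and none fell, with a median of 1.69, against 6.21% higher over all genes and 18.5% in the class from 1 to 10 CPM. The list does not hold every P450 gene, and Cyp4s3, which fell, is outside it. In 31 of the 43 both mutant libraries lay above both control libraries, a share that was not counted over all genes. Cyp12a4 was at 12.8 and 8.62 CPM in the mutant and 1.04 and 0.634 CPM in the control (log2 fold change 3.52, adjusted p = 0.0106), and Cyp6g2 at 3.19 and 3.47 CPM in the mutant and 0.187 and 0.0846 CPM in the control (log2 fold change 4.46). Cyp6a9 was at 17.4 and 19.4 CPM in the mutant and 3.66 and 4.36 CPM in the control. These rises were from low levels, since 24 of the 43 genes were under 1 CPM in the control, and 10 of the 15 that rose were among them. Cyp6v1 was at 166 and 155 CPM in the mutant and 154 and 152 CPM in the control. With 1 library left out, between 0 and 3 of the 43 rose. The 17 muscle genes used as tissue markers also had a higher sum in the mutant, at 2348.6 and 3784 CPM, against 1141 and 691 CPM in the control, and their part in the rises of metal and P450 genes was not tested. Of 28 glutathione transferase genes, 3 rose (GstE10, GstD2 and GstE11), which is 10.7%, against 6.21% of all genes. GstE1 fell (3.57%, against 4.78% of all genes).

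Of 21 tested heterochromatin genes 7 fell (33.3%) and none rose, with a median of −0.29, against 4.78% lower over all genes, and 3 fell with library totals alone. Su(var)3-9, a histone H3 lysine methyltransferase gene, was at 33.5 and 28.6 CPM in the mutant and 52.2 and 53.8 CPM in the control (log2 fold change −0.93, SE 0.119, adjusted p = 0.0132). Hmr, a heterochromatin protein gene, was at 71.7 and 65.9 CPM in the mutant and 103 and 107 CPM in the control. The others were Su(var)3-7, HP5, Kdm4B, HDAC1 and egg, with log2 fold changes between −0.74 and −0.41. The gene for HP1a (FBgn0003607), the founding heterochromatin protein, was at 238 and 192 CPM in the mutant and 192 and 226 CPM in the control, with overlapping groups. In this list 13 genes had a mean of 100 CPM or more over the 4 libraries, a level at which 265 of 2533 genes fell overall.

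Calls among genes of stress signalling and energy metabolism are given with their shares, to be read against 6.21% higher and 4.78% lower over all genes. Of 13 JNK pathway genes 3 rose (23.1%). These were Mmp1, a matrix protease, at 15.2 and 15.3 CPM in the mutant and 3.47 and 1.95 CPM in the control, bsk, the kinase JNK itself, at 62.1 and 51.1 CPM in the mutant and 23.4 and 20.4 CPM in the control, and puc, its phosphatase, at 95.9 and 96.2 CPM in the mutant and 49.9 and 51.7 CPM in the control. In all 3 the mutant libraries were alike and well above the control. The JAK/STAT ligand gene upd2 rose, at 1.11 and 0.667 CPM in the mutant and 0.0534 and 0.0634 CPM in the control, 1 of 12 in its list (8.33%, near the share of all genes). Of 40 nuclear respiratory chain genes 5 rose (12.5%), by log2 values of 0.48 (SdhC) to 0.96 (RFeSP). Of 13 glycolysis genes Ldh (log2 fold change 3.33) and Tpi (0.59) rose, which is 15.4% of them. The stress kinase gene PEK and the transcription factor gene crc fell, by log2 values of −0.54 and −0.45, among 15 genes of endoplasmic reticulum stress (13.3%).

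The calls of further lists are given with their shares, to be set against the same 6.21% and 4.78%. The lipid droplet gene Lsd-1 rose (log2 fold change 2.44) and Lsd-2 fell (−0.47), with CG9743 higher and Hsl lower, among 17 lipid genes (11.8% each way). In the Notch list E(spl)m8-HLH and E(spl)m7-HLH were higher, and N and mib1 lower, of 15 (13.3% each way). Of 21 Hedgehog, Wnt and BMP genes disp and put fell (9.52%), Sesn fell among 12 insulin and growth genes (8.33%), and Hr39 among 20 ecdysone genes (5%). Of 31 immune genes Dif, PGRP-SB1 and Tep4 rose (9.68%) and PGRP-LC fell (3.23%). PGRP-LC was at 8.03 and 8.598 CPM in the mutant, 42.8 and 29.4 CPM in the piwi control and 1.81 and 0.949 CPM in the RnpS1 control. Besides Obp49a, Obp57a, Obp83cd, Obp83ef and Or42a rose among 19 tested chemosensory genes (26.3%), and Lkr and Dh44-R2 among 20 neuropeptide and receptor genes (10%). All of these lay under 1 CPM in the control. Only 19 of 35 and 20 of 37 listed genes had enough counts to be tested, and counts in the mutant alone can suffice for that. The shares of these 2 lists are therefore no separate support. Of all tested genes 16.6% rose at under 0.1 CPM in the control, and 11.2% from 0.1 to 1 CPM. With library totals alone none of the falls of PEK, crc, Lsd-2, Hsl, mib1, disp, put, Sesn, Hr39 and PGRP-LC passed. In edgeR none of 32 proteasome genes passed, although 3 had an unadjusted p under 0.05 and DESeq2 called 1, all lower, and their median of −0.11 turned to 0.05 with library totals alone. None of 17 antioxidant genes passed in edgeR, where 1 higher and 1 lower had an unadjusted p under 0.05, while DESeq2 called 2 higher and 1 lower. The same held for 22 autophagy genes (2 lower unadjusted, 1 lower in DESeq2) and 17 nurse cell cytoskeleton genes (1 higher and 2 lower unadjusted, 1 and 1 in DESeq2). It held too for 15 sex determination genes (2 higher and 4 lower unadjusted, 2 and 2 in DESeq2) and 15 mitochondrially encoded genes (1 higher by each count).

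Markers of tissues that lie in or beside the ovary mostly had higher values in the mutant libraries, and higher ones in mutant library 2 than in library 1. Of 17 muscle genes, which mark the ovary's sheath, 16 had both mutant libraries above both control libraries. The share of all genes set apart in this way was not counted. Among the 17, Mf rose (5.88%, against 6.21% of all genes). Its log2 fold change was 2.26 (adjusted p = 0.0468), a call that did not pass with RLE factors. Myosin heavy chain (Mhc) was at 292 and 626 CPM in the mutant and 93.1 and 28.5 CPM in the control (adjusted p = 0.187). Of 13 haemocyte and basement membrane genes, the blood cell genes Hml and NimC1 rose (15.4%). Levels of Hml were 91.4 and 143 CPM in the mutant and 6.23 and 1.63 CPM in the control. Those of NimC1 were 15.7 and 21.97 CPM in the mutant and 0.187 and 0.0423 CPM in the control. The basement membrane gene Col4a1 of the same list had overlapping groups, at 106 and 134 CPM in the mutant and 198 and 66.9 CPM in the control. The list summed to 1067 and 1661 CPM in the mutant and to 1048 and 430.4 CPM in the control.

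Of 13 fat body genes Tsf1, apolpp and Apoltp, which encode iron and lipid carriers of the haemolymph, rose (23.1%, against 6.21% of all genes). Tsf1 was at 65.3 and 232 CPM in the mutant and 2.97 and 6.85 CPM in the control, and the storage protein gene Lsp2 at 59.2 and 186 CPM in the mutant and 1.79 and 0 CPM in the control (adjusted p = 0.0557). The yolk protein genes of that list, which follicle cells also express, had lower values, with Yp2 at 1170.0 and 1189 CPM in the mutant and 3213 and 2161 CPM in the control (adjusted p = 0.218). Of 8 tracheal genes pio rose (12.5%). None of 15 neuronal genes passed in edgeR, against 6 higher unadjusted and 3 in DESeq2, and elav was at 8.83 and 16.8 CPM in the mutant and 6.71 and 2.66 CPM in the control. The gut list separated the mutant libraries. Its 20 tested genes summed to 1.54 and 49.1 CPM in the mutant, against 1.44 and 1.92 CPM in the control, and all 20 were higher in mutant library 2 than in library 1. None passed in edgeR, against 0 unadjusted and 1 higher in DESeq2. Of 7 testis genes can and mia rose (28.6%), but 23 were listed, and counts in the mutant alone can suffice for a gene to be tested. Of 7 oviduct and spermatheca genes lz, Send1 and Cyp6g2 rose (42.9%) and Hr39 fell (14.3%, against 4.78% of all genes). Counts of gut proteases and other near-identical copies are uncertain, since reads that align to several places are not in the gene counts. The part of these tissues in the genes that rose was not tested.

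**Figure D5:**
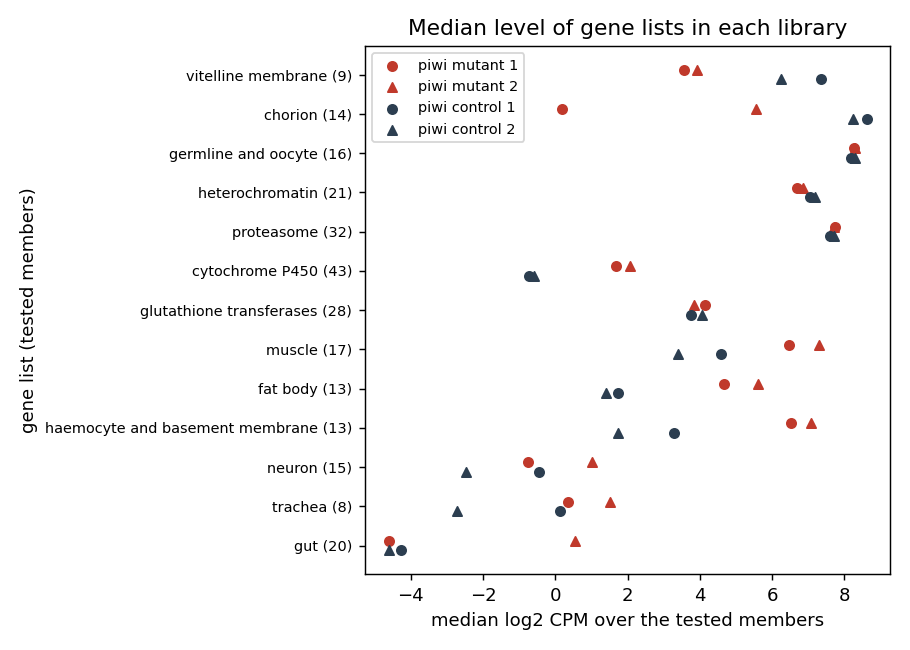
Median log2 CPM (horizontal axis) over the tested members of 13 gene lists, in each mutant library (red) and control library (dark), with replicate 1 as circles and replicate 2 as triangles. Eggshell lists sit lower in the mutant, with 0.20 and 5.57 for chorion, germline and proteasome lists nearly coincide, and the gut list is raised in mutant library 2 alone.

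Calls depend in part on the spread between libraries, so the closeness of the mutant libraries for called genes is no separate support. The median distance between the mutant libraries was 0.33 on the log2 scale for genes that rose and 0.09 for genes that fell. For genes that did not pass it was 0.17. The mutant libraries were over 4-fold apart in 2 of 648 genes that rose and 8 of 499 that fell, and library 2 was the higher in each. Those that rose were inaC, a protein kinase C gene at 0.236 and 0.982 CPM in the mutant and 0 and 0 CPM in the control, and Cyp28d1. Those that fell included Cp7Fa and sosie and CG31926, at 0.0857 and 3.2 CPM in the mutant and 40 and 46.7 CPM in the control. The others were CG31928, CG16956, CG4066, CG14309 and CG43965. Among genes that did not pass, 456 had mutant libraries over 4-fold apart, 365 of them with library 2 higher.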

How the data were processed

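Per the labels' protocols, total RNA of dissected ovaries was depleted of ribosomal RNA and sequenced as strand-specific libraries. For each library the authors deposited raw counts of reads per gene and raw counts per transposon family, neither normalized nor pooled. Tools named in the submitters' processing notes are HTSeq 0.5.3p9, TopHat2 2.0.9, DESeq and CASAVA in versions 1.8 and 1.8.2, with the builds BDGP5 and dm3. For the transposon counts the aligner is not given in the sources used here. As the last 5 rows of each gene table name no gene, they were left out. In the 4 libraries of this comparison they held reads outside genes (4.45% to 10.7% of gene counts plus reads outside genes and ambiguous reads), ambiguous reads (1.33% to 1.63%) and alignments to several places (43.2% to 66.0% of all of these together). Of 15682 gene identifiers 15002 have a symbol in a later annotation (BDGP6), used for names, chromosome and gene type only. No sequences or coordinates are given.

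Counts were tested by the quasi-likelihood method of edgeR 4.0.16 in R 4.3.3. A single fit covered the 8 libraries, had 1 coefficient for each group and used no covariates. The fit held 10434 genes kept by filterByExpr and 123 families with 10 or more counts. Library sizes and TMM factors came from gene counts, and Benjamini-Hochberg adjustment was made separately over genes and families. CPM are counts over the gene total without TMM factors, so the log2 ratio of printed CPM is about 0.16 above the fitted value. The standard error was derived from the F statistic. A gene without control counts is given as a bound against 3 counts over the group, and one with 1 to 3 counts as a ratio with an exact interval, both covering counting error only. With 2 libraries per group the number of libraries limits the precision, and depth was not varied. The code was tested on simulated data. Alternatives were RLE factors, library totals alone, DESeq2 1.42.0, the replicate number as a block, the 4 libraries alone, other filters, factors from the families, joint adjustment and each library left out.

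The comparison, gene lists and tests were chosen with earlier results of these data known. Of 761 list entries 708 matched a gene in the tables, and those that matched none, such as vas and nos, were left out. Genes and families were named by a fixed rule: called list members and up to 4 others per list, the 15 genes in each direction with an adjusted p under 0.05, a mean of 5 CPM or more in the higher group and the widest gap between groups, the 20 families with the widest gap, those that fell, the 10 nearest to no change among families with 1000 or more control counts, and called genes with mutant libraries over 4-fold apart. List members named with an adjusted p over 0.05 and further families of a lineage were added after their values were seen.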

Additional observations from a re-analysis of the deposited data

Results flagged for a closer look

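Alignments to several places are not part of the gene counts, and they made up 66.0% and 64.6% in the mutant libraries and 51.4% and 43.2% in the control libraries, as a percentage of gene counts, reads outside genes, ambiguous reads and these alignments together. They drew attention because they lie outside the counts used and both mutant values exceed both control values. In the RnpS1 control they were 44.9% and 65.3%, the higher of which lay between the mutant values. The relation of these reads to transposon transcripts was not tested.

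The change in the mutant differed from the change in the RnpS1 knockdown in 47 families and in 67 genes, by the test of the difference itself in the fit over all libraries. The values of the families and genes named for it stand in the results. The 2 comparisons have separate controls, and the levels of w, phr6-4, hopper and several others named here differed between those controls. In the edgeR test of RnpS1 control over piwi control, mdg3 (log2 fold change −1.38), gtwin (−1.61), diver (−2.19), 412 (−1.82) and copia (1.67) passed. So did the genes hbt (4.53), GstE10 (8.79), jtb (2.35) and Sodh2 (−1.43). ZAM, gypsy, TAHRE and HeT-A did not pass in that test.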

How the results depend on the processing

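The ratio of transposon counts per 100 gene counts, 15.7, kept its direction under both other denominators (16.0 and 15.6) and with each library left out (13.0 to 19.9). The 75 families higher became 41 with factors from the families, and lay between 56 and 97 with a library left out. The 2 lower became 48 with factors from the families, 1 with joint adjustment and 1 to 3 with a library left out. With factors from the families 7 families near no change turned negative: jockey2 (−1.44), roo (−1.44), Doc3-element (−1.30), Tom1 (−1.28), 1731 (−1.22), HB (−1.18) and gypsy10 (−1.15). This follows from setting the bulk of families to no change. Of the 22 named families with a call 21 kept it with each library left out, NOF being the exception.

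For genes, 648 higher and 499 lower became 1303 and 1175 in DESeq2, and 197 were lower with library totals alone. With a library left out 19 to 118 were higher and 7 to 73 lower, in fits with fewer samples. The replicate numbers are not said to pair libraries, and deviations of same-numbered libraries had a correlation of −0.15 across 10434 genes. With the replicate number as a block 366 genes were higher and 258 lower (families 74 and 2), and with the control numbers crossed, tried after seeing the data, 1192 and 1271. Counts under RLE factors (656 and 467), without a filter (629 and 413), in the 4 libraries alone (867 and 587), with joint adjustment (673 and 530) and with bias-adjusted deviances, added after seeing the data (909 and 615), stayed within 1.5 times.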
